A study of Homo sapiens with 6 samples.

Results

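The genes described here encode the machinery that ends an mRNA: the complexes that cleave and polyadenylate the transcript, the proteins that read or dephosphorylate the C-terminal domain (CTD) of RNA polymerase II, and factors that terminate or restrict transcription. They were chosen by name, as 39 listed genes, with earlier results of these data known. All 39 were among the 13885 genes of the authors' deposited table. Symbols were matched through Ensembl identifiers without their version. PCF11, named in the title of the study beside the cap mark m6Am, is one of them. Their mean normalised counts per the authors' deposited table ran from 65.9 (RPAP2) to 2436 (PPP1CA), so none lay near the lowest mean of the table, 7.01.

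RNA came from BE(2)-C, a human neuroblastoma line recorded as wild type, in 2 groups of 3 samples. The groups are called siScram and siPcif1 in the labels and siScramble and siPCIF1 here. One received a scrambled siRNA and the other a single siRNA against PCIF1, in both cases for 24 h. All 6 samples then had 10 µM all-trans retinoic acid (ATRA), an agent of neuronal differentiation, for 4 days. No sample without ATRA enters the comparison, which therefore holds for cells under ATRA. PCIF1 is the methyltransferase that makes m6Am, by methylating an adenosine next to the mRNA cap.

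A transcript ends when CPSF binds the poly(A) signal in the RNA, CstF binds a U- or GU-rich element downstream, CFI binds UGUA elements upstream, and the nuclease of CPSF cuts between them. Poly(A) polymerase then extends the cut end, and the exonuclease XRN2 degrades the RNA still attached to the polymerase. CFII, made of PCF11 and CLP1, links this reaction to the phosphorylated CTD through the CTD-interacting domain of PCF11. These factors also act at early sites inside genes, where cleavage gives short transcripts.

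The authors' deposited table is the result of a DESeq2 comparison of both groups and has no values per sample. For each gene it lists the mean normalised count over all samples, a log2 fold change with its standard error (SE), and an adjusted p. A gene is said to have risen or fallen when its DESeq2 adjusted p was under 0.05. The header does not state the direction. It was read as siPCIF1 over siScramble, because PCIF1, the siRNA target, then has a negative value of -0.82 (SE 0.19, DESeq2 adjusted p = 0.000167) per the authors' deposited table. The opposite reading, the plain order of the file's title, would turn every sign in this text. Since PCIF1 set the direction, its sign is no check that the siRNA worked. The labels do not state whether samples came from separate cultures; the p-values then cover the spread between these samples alone, which may be technical. Fewer cells of a type and less RNA per cell cannot be told apart in bulk RNA. All 10 listed markers of noradrenergic neuroblastoma were in the table, and 0 of 3 endothelial, 1 of 4 immune, 3 of 4 epithelial, 2 of 4 glial and 4 of 6 fibroblast markers. The mitochondrial rRNA MT-RNR2 took 34.0% of the summed means, the 7SL RNA gene RN7SL2 11.6% and the 39 genes 0.135%.

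The start of the PCF11 gene is shown because PCIF1 acts on the first base after the cap, and because PCF11 is the factor the study names. The RefSeq promoter of PCF11 covers chr11:83156881-83157180 of GRCh38.p14 on the plus strand. It runs from 250 bases before the annotated first base, at 83157131, to 50 bases from it onward. That base is G and not A, and the main GENCODE transcript, which starts 143 bases away, also begins with G. Other GENCODE transcripts of PCF11 start within the printed stretch, and the start at 83157159 falls on an A. Which start these cells use was not measured. Capitals mark matches to CCAAT, at -209 and -69 from the first base, and to GGGCGG, at -98 and, on the opposite strand, at -41.

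PCF11 promoter: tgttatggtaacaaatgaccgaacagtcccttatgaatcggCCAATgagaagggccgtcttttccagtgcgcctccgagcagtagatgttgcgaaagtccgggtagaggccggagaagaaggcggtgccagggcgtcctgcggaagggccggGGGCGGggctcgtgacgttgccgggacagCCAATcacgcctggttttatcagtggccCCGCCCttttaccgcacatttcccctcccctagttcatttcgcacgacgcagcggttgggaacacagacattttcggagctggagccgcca

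The same region is given for the 6 genes with the smallest DESeq2 adjusted p among those that rose, as 20 bases on either side of the RefSeq first base, which is in capitals. PHF3 starts with A at chr6:63635782-63635822 (plus strand), SCAF11 with G at chr12:45990554-45990594 (minus) and RPRD1A with A at chr18:36067539-36067579 (minus). CSTF3 starts with A at chr11:33161460-33161500 (minus), CPSF3 with G at chr2:9423634-9423674 (plus) and CPSF2 with G at chr14:92121949-92121989 (plus).
PHF3: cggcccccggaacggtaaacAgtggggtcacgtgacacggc
SCAF11: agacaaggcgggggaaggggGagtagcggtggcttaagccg
RPRD1A: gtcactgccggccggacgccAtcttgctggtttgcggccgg
CSTF3: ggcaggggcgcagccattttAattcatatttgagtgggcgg
CPSF3: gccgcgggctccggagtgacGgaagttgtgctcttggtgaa
CPSF2: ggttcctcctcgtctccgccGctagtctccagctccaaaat

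Of the 34 genes with a RefSeq start within 5000 bases of the gene's 5′ end, 13 (38.2%) start with A, 19 with G, 2 with C and 0 with T. Among 9005 genes of the table with such a start, 45.6% start with A and 41.3% with G. The members that start with A had a median log2 fold change of 0.50 per the authors' deposited table, and those that start with G one of 0.27. Over all genes the medians were 0.01 and -0.01. The annotated base is an uncertain guide to the base used in these cells: 0 of the 34 RefSeq starts coincided with the first base of the main GENCODE transcript, and 8 had the same letter there.

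As a group the genes lay above the rest of the table. Of the 39, 12 rose and 1 fell per the authors' deposited table by DESeq2, where 16.3% of all genes rose and 17.7% fell. That is 30.8% of the members up and 2.56% down. A positive value was listed for 28 of them, or 71.8%, against 50.4% of all genes. Their median log2 fold change per the authors' deposited table was 0.27, next to 0.01 for all genes. The values spanned -0.59 to 0.88, so no member reached a doubling or a halving.

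**Figure D1:**
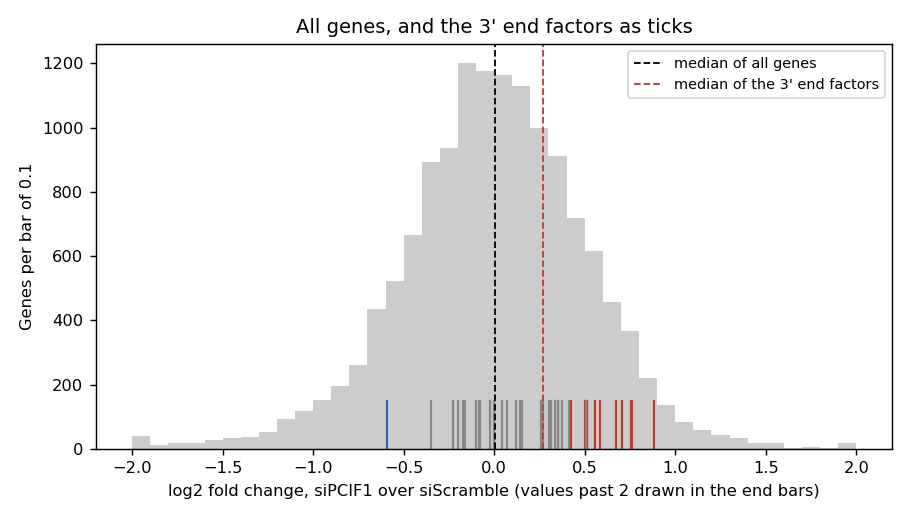
The histogram counts all 13885 genes by log2 fold change (horizontal axis) in bars of 0.1, with values past 2 in the end bars; ticks are the 39 genes of 3′ end formation, red where they rose, blue where they fell and grey where they did not pass. The ticks reach from -0.59 to 0.88, and their median (red dashes) is at 0.27 against 0.01 for all genes (black dashes).

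PCF11 itself was positive and missed the threshold. The authors' deposited table lists it at a mean of 360 normalised counts and a log2 fold change of 0.35 (SE 0.16, 95% interval 0.05 to 0.66, DESeq2 adjusted p = 0.0667), or 1.28-fold. The deposited mean and fold change together imply about 316 normalised counts in siScramble and 403 in siPCIF1. Its unadjusted p was 0.0244, and 5998 genes of the authors' deposited table had an unadjusted p under 0.05. PCF11 (ENSG00000165494.11) lies at chr11:83156988-83187451 on the plus strand of GRCh38, with 16 exons in its main transcript. CLP1, the RNA kinase that is its partner in CFII, went the other way per the authors' deposited table, at -0.23 (SE 0.22, DESeq2 adjusted p = 0.462) and a mean of 80.8. Neither subunit of CFII passed.

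The call on PCF11 changed under 1 of 2 centrings. Subtracting the median of all genes left it short of passing, at an adjusted p of 0.0714 from the DESeq2 values. Subtracting the median of genes with a mean of at least 100, which was -0.02, gave PCF11 an adjusted p of 0.0484 from the DESeq2 values. With a trend in GC content, length and expression removed, as described below, PCF11 was at 0.14 with an adjusted p of 0.562, and again did not pass. PCF11 is known to limit its own expression through an early poly(A) site, and a count per gene does not separate short from full transcripts. GENCODE lists 7 transcripts of PCF11. The main one covers the whole gene in 7677 bases, and the shortest at the 5′ end by span is a single exon of 1720 bases at chr11:83157160-83158879, near the start. PCF11 also overlaps AP000873.4 on its own strand (mean 10.5, log2 fold change -0.51, SE 0.30) and AP000873.2 on the other strand (mean 45.4, log2 fold change 0.04, SE 0.23) per the authors' deposited table. PCF11-AS1 overlaps it too and is not in the table. How the counting treated strand is unknown here, so shared reads cannot be placed.

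CPSF, with its scaffold symplekin, had 3 of 7 members up and 0 down per the authors' deposited table by DESeq2, with a median of 0.37. That is 42.9% up, where 16.3% of all genes rose and 17.7% fell. CPSF3, the nuclease that cuts the transcript, was at 0.56 (SE 0.15, DESeq2 adjusted p = 0.00109) per the authors' deposited table. The implied levels are 447 normalised counts in siScramble and 657 in siPCIF1. CPSF2, its catalytically inactive relative and partner, rose by 0.59 (SE 0.16) and WDR33, a subunit that contacts the poly(A) signal, by 0.51 (SE 0.14) per the authors' deposited table. All 3 had 95% intervals above 0.2. CPSF3 and WDR33 still passed with the trend removed, and CPSF2 did not, at 0.23 (adjusted p = 0.313 from the DESeq2 values).

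The other CPSF subunits did not pass. Symplekin (SYMPK) was at 0.37 (SE 0.17, DESeq2 adjusted p = 0.0727) per the authors' deposited table. FIP1L1, which ties poly(A) polymerase to CPSF, was at 0.04 (SE 0.18), and the scaffold CPSF1 at -0.16 (SE 0.15) per the authors' deposited table. CPSF4, which with WDR33 recognises the poly(A) signal, was the lowest at -0.35 (SE 0.17, DESeq2 adjusted p = 0.0931) per the authors' deposited table. CPSF4, with a mean of 270, shares its whole length with PTCD1 on the opposite strand (mean 81.9). PTCD1 was at -0.01 (SE 0.21) per the authors' deposited table. ATP5MF (mean 710), also on the opposite strand, overlaps CPSF4 by 8897 bases and was at 0.00 (SE 0.15) per the authors' deposited table. Per kb of merged exons, the mean over both groups was 146 normalised counts for CPSF3, 63.6 for CPSF4, 54.1 for SYMPK, 43.3 for CPSF1, 40.4 for CPSF2, 27.2 for FIP1L1 and 25.8 for WDR33. The subunits that rose thus include the highest and the lowest of the 7 by this level.

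In CstF, which binds downstream of the cut, CSTF3 rose and the others did not pass. CSTF3, the scaffold subunit, was at 0.76 (SE 0.19, DESeq2 adjusted p = 0.000652) per the authors' deposited table, or 1.69-fold. Its implied levels are 94.3 normalised counts in siScramble and 159 in siPCIF1. CSTF3 overlaps TCP11L1 over 28756 bases on the opposite strand, which was at 0.14 (SE 0.15) per the authors' deposited table, and LINC00294, which rose by 0.53 (SE 0.19, DESeq2 adjusted p = 0.016). The RNA-binding subunit CSTF2 was at 0.07 (SE 0.18) and the WD-repeat subunit CSTF1 at 0.00 (SE 0.15) per the authors' deposited table. CSTF2T, an intronless copy of CSTF2, was at 0.34 (SE 0.16, DESeq2 adjusted p = 0.0833) per the authors' deposited table.

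CFI combines a NUDT21 dimer, which binds UGUA, with CPSF6 or CPSF7. NUDT21 rose by 0.35 (SE 0.14, DESeq2 adjusted p = 0.0368) per the authors' deposited table, from an implied 1016 to 1296 normalised counts. CPSF6 rose by 0.51 (SE 0.14, DESeq2 adjusted p = 0.00182) per the authors' deposited table, from an implied 651 to 931. Their alternative partner CPSF7 was at -0.23 (SE 0.15, DESeq2 adjusted p = 0.257) per the authors' deposited table. CPSF6 thus lay 0.74 above CPSF7, with a 95% interval of 0.33 to 1.15 from both SEs. With the trend removed the gap was 0.35, and its interval of -0.06 to 0.76 held 0. Both CFI calls also ended, and the median of CFI went from 0.35 to 0.09.

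The poly(A) polymerases and their helpers were all positive, and 1 of 4 rose. PAPOLA, the main nuclear poly(A) polymerase, was at 0.50 (SE 0.17, DESeq2 adjusted p = 0.0116) per the authors' deposited table, with implied levels of 606 and 858 normalised counts. It was at 0.27 with the trend removed and did not pass. Its relative PAPOLG was at 0.26 (SE 0.20, DESeq2 adjusted p = 0.325) per the authors' deposited table. The difference of 0.24 between them had a 95% interval of -0.27 to 0.75. RBBP6, a ubiquitin ligase that activates cleavage, was at 0.31 (SE 0.17), and PABPN1, the nuclear poly(A)-binding protein, at 0.14 (SE 0.16) per the authors' deposited table.

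**Figure D2:**
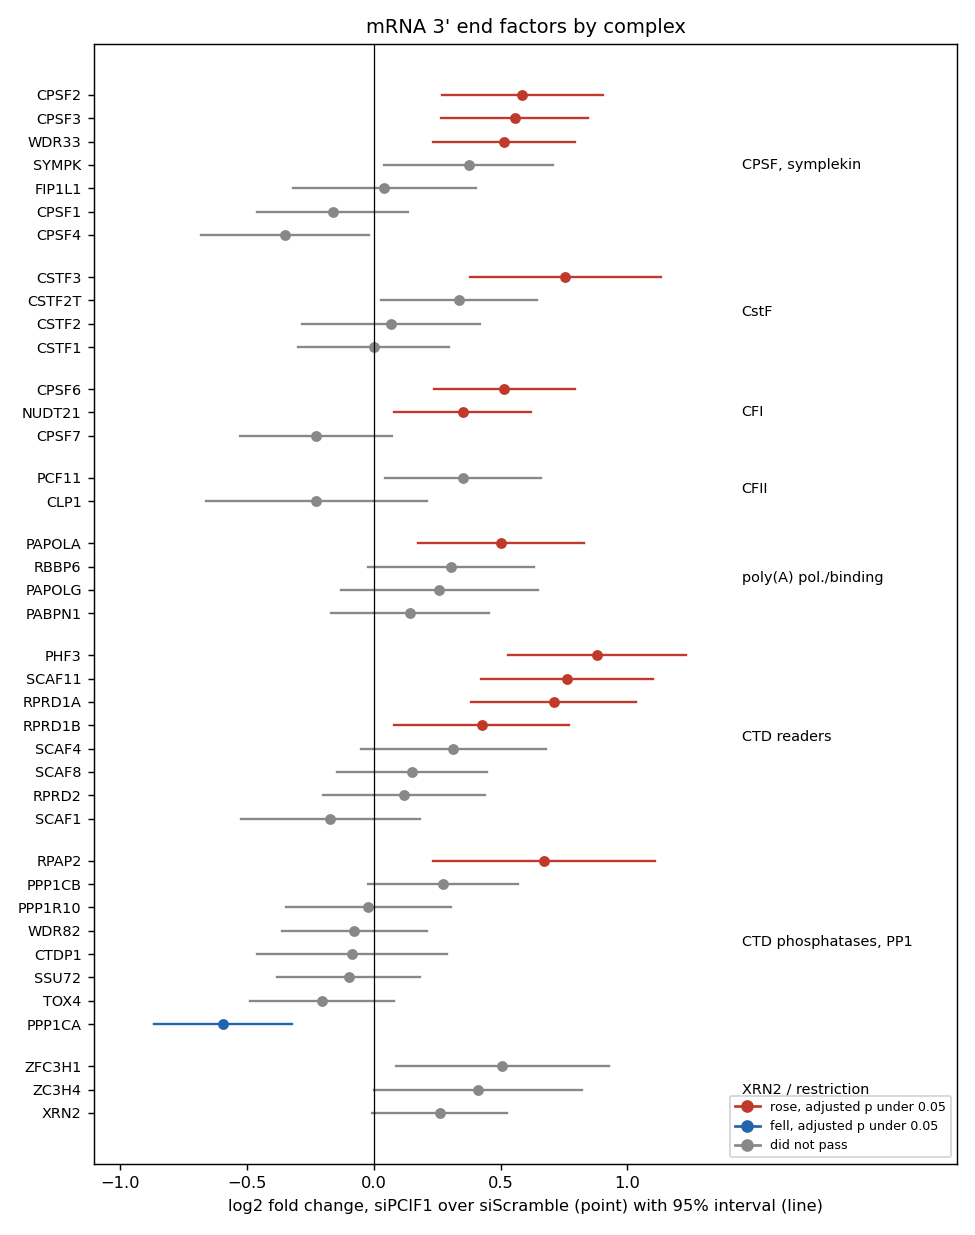
Each point is the log2 fold change (siPCIF1 over siScramble) of 1 gene per the authors' deposited table, and its line the 95% interval from the deposited SE; genes are grouped by complex and coloured by DESeq2 call. Red points occur in CPSF, CstF, CFI, the poly(A) polymerases, the CTD readers and RPAP2, while PPP1CA at -0.59 is the only blue point of the 39.

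CTD readers bind the phosphorylated tail of the polymerase, and 4 of 8 rose and 0 fell per the authors' deposited table by DESeq2, with a median of 0.37. PHF3, whose SPOC domain binds the phosphorylated CTD, had the highest value of the 39 at 0.88 (SE 0.18, DESeq2 adjusted p = 1.27e-05) per the authors' deposited table. That is 1.84-fold, from an implied 236 to 435 normalised counts. PHF3 lies at chr6:63635820-63779336 and has the longest span of the members, 143.5 kb. SCAF11 rose by 0.76 (SE 0.17, DESeq2 adjusted p = 0.000102), from an implied 265 to 450 counts, per the authors' deposited table. SCAF11 is counted among the readers by its name, and its binding to the CTD was not tested here. RPRD1A rose by 0.71 (SE 0.17) and RPRD1B by 0.43 (SE 0.18, DESeq2 adjusted p = 0.0472) per the authors' deposited table. They are related proteins with a CTD-interacting domain, like that of PCF11, and their difference of 0.28 had an interval of -0.19 to 0.76. PHF3 and RPRD1A passed with the trend removed, while SCAF11 (0.42) and RPRD1B (0.35) did not. RPRD1B overlaps 394 bases of TGM2, on the opposite strand, which fell by 1.42 (SE 0.17) per the authors' deposited table.

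The remaining readers did not pass. SCAF4 and SCAF8, related proteins that prevent early termination, were at 0.31 (SE 0.19) and 0.15 (SE 0.15) per the authors' deposited table. Their difference of 0.16 had an interval of -0.31 to 0.63. RPRD2 was at 0.12 (SE 0.16) and SCAF1, the member with the highest GC content (68.5%), at -0.17 (SE 0.18) per the authors' deposited table.

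Of the 8 CTD phosphatases and PNUTS-PP1 genes, 1 rose and 1 fell per the authors' deposited table by DESeq2. These shares, 12.5% each, lie near the 16.3% and 17.7% of all genes. Their median of -0.08 was the lowest of the 8 groups as deposited. With the trend removed it was -0.02, as was that of CFII. PPP1CA, a catalytic subunit of protein phosphatase 1, was the member that fell, at -0.59 (SE 0.14, DESeq2 adjusted p = 0.000191) per the authors' deposited table. Its implied levels are 2929 normalised counts in siScramble and 1942 in siPCIF1, and its level per kb, 898, is the highest of the 39. PPP1CA was at -0.23 with the trend removed and did not pass (adjusted p = 0.226 from the DESeq2 values). PPP1CB, another catalytic subunit, was at 0.27 (SE 0.15, DESeq2 adjusted p = 0.154) per the authors' deposited table. The difference, PPP1CA minus PPP1CB, was -0.86 (95% interval -1.27 to -0.46). Their main transcripts have GC contents of 60.4% and 35.5%, and with the trend removed the difference was -0.16 (-0.56 to 0.24). PPP1CA overlaps RAD9A by 228 bases on the opposite strand, which fell by 1.19 (SE 0.18) per the authors' deposited table.

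PP1 is brought to the polymerase by PNUTS (PPP1R10), TOX4 and WDR82, and none of these passed. PPP1R10 was at -0.02 (SE 0.17), TOX4 at -0.20 (SE 0.15) and WDR82 at -0.08 (SE 0.15) per the authors' deposited table. Among dedicated CTD phosphatases, RPAP2 rose by 0.67 (SE 0.22, DESeq2 adjusted p = 0.0118) per the authors' deposited table. It has the lowest level per kb of the 39, 3.85, and its implied counts went from 50.9 to 81.0. RPAP2 was at 0.25 with the trend removed and did not pass. SSU72 was at -0.10 (SE 0.14) and CTDP1, also called FCP1, at -0.09 (SE 0.19) per the authors' deposited table.

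Of the factors that act on the RNA around termination, 0 of 3 passed, and all were positive. Of all genes, 16.3% rose and 17.7% fell. XRN2 was at 0.26 (SE 0.13, DESeq2 adjusted p = 0.123) per the authors' deposited table. ZC3H4, which with WDR82 restricts early transcripts, was at 0.41 (SE 0.21, DESeq2 adjusted p = 0.113) per the authors' deposited table. ZFC3H1, which hands polyadenylated nuclear RNA to the exosome, was at 0.51 (SE 0.21, DESeq2 adjusted p = 0.0527) per the authors' deposited table. ZFC3H1 and PCF11 were the members just past the threshold, and RPRD1B (0.0472) and NUDT21 (0.0368) those just inside it.

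**Figure D3:**
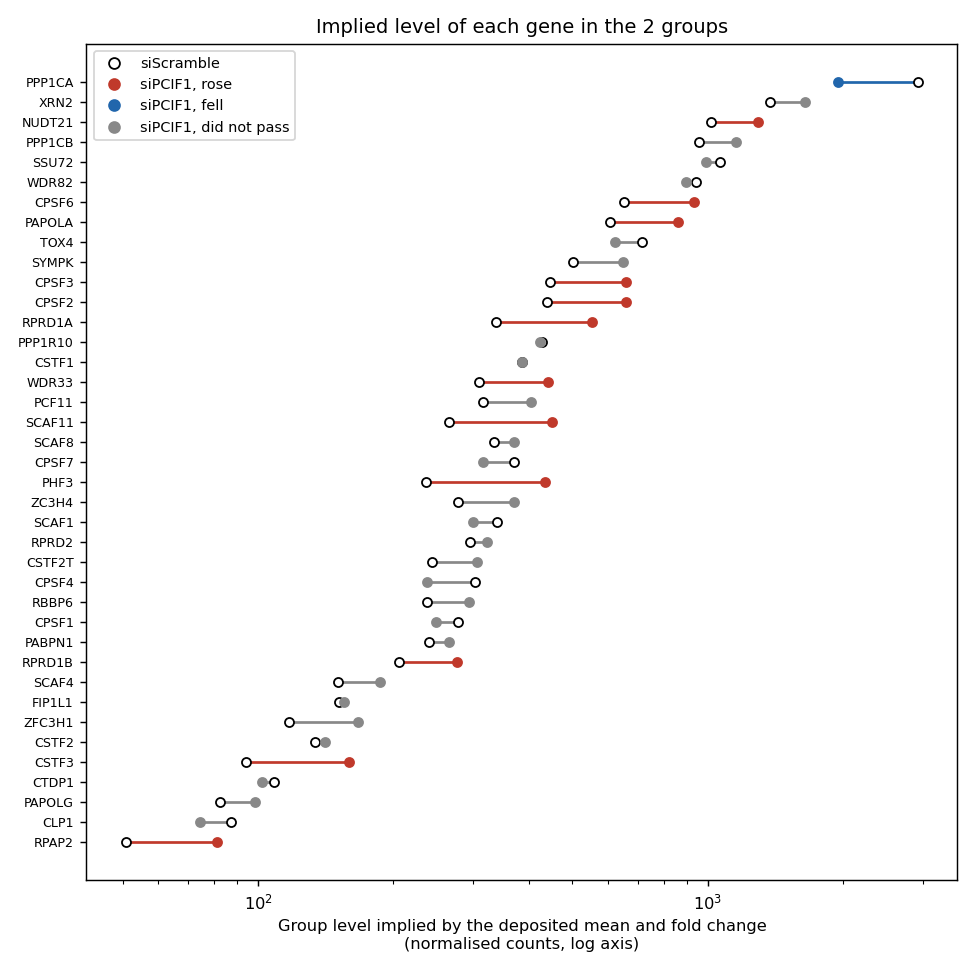
Open points are the siScramble level and filled points the siPCIF1 level of each gene, in normalised counts on a log axis, as implied by the mean and fold change of the authors' deposited table and not measured per group. PPP1CA runs from 2929 down to 1942 counts, while PHF3 runs from 236 up to 435 and PCF11 from 316 to 403.

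The genes that rose were long and low in GC. Their main transcripts had a median GC content of 39.3% and the genes a median span of 78.1 kb, against 50.4% and 33.4 kb for the 26 that did not pass. Among the 20 members with a GC content up to 46.4%, 10 rose and 0 fell per the authors' deposited table. Among the other 19, 2 rose and 1 fell. All genes were not counted in these GC ranges, so the split is not shown to be particular to the members. Median GC content was 46.4% in the members and 48.8% in all genes, and median span 47.9 kb and 28.97 kb. Across the 39 genes, Spearman's rho between the fold change (log2) that the authors' deposited table lists and GC content was -0.66, and with span it was 0.59. Across 13877 annotated genes the same rho values were -0.42 and 0.22. These describe genes measured in the same 6 libraries, which are not independent replicates. With mean expression, rho across the 39 was 0.00.

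**Figure D4:**
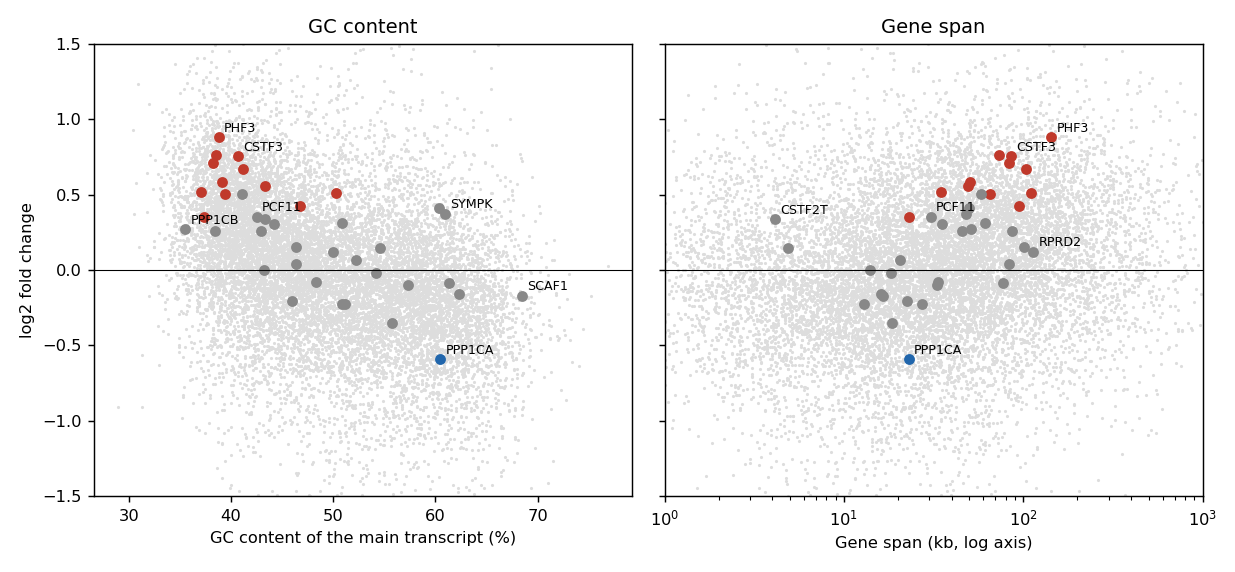
Log2 fold change per the authors' deposited table against the GC content of the main transcript (left) and gene span on a log axis (right), for all genes (light dots; values past 1.5 are not drawn) and the 39 members (red rose, blue fell, grey did not pass). PHF3 and CSTF3 lie at low GC and long span and PPP1CA at 60.4% GC, with SYMPK at a similar GC content and a value of 0.37.

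The comparison was repeated with that trend removed, by fitting the log2 fold change of all annotated genes on GC content, transcript length, gene span and mean count. Then 7 members passed as higher and 0 as lower, where 11.3% of all genes passed as higher and 13.4% as lower. The median of the 39 was 0.17, against 0.01 for all genes. Of the 12 genes that rose as deposited, 5 still passed: PHF3 (0.54), CSTF3 (0.54), CPSF3 (0.49), WDR33 (0.44) and RPRD1A (0.42). SCAF11, at 0.42, had an adjusted p of 0.0549 from the DESeq2 values. CPSF2, CPSF6, NUDT21, PAPOLA, RPAP2 and RPRD1B were at 0.09 to 0.35 and did not pass, nor did PPP1CA, at -0.23. The other 2 that passed were GC-rich genes that had not passed as deposited: SYMPK at 0.58 (adjusted p = 0.00437 from the DESeq2 values) and ZC3H4 at 0.56 (adjusted p = 0.0346 from the DESeq2 values). The source of the trend was not tested.

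**Figure D5:**
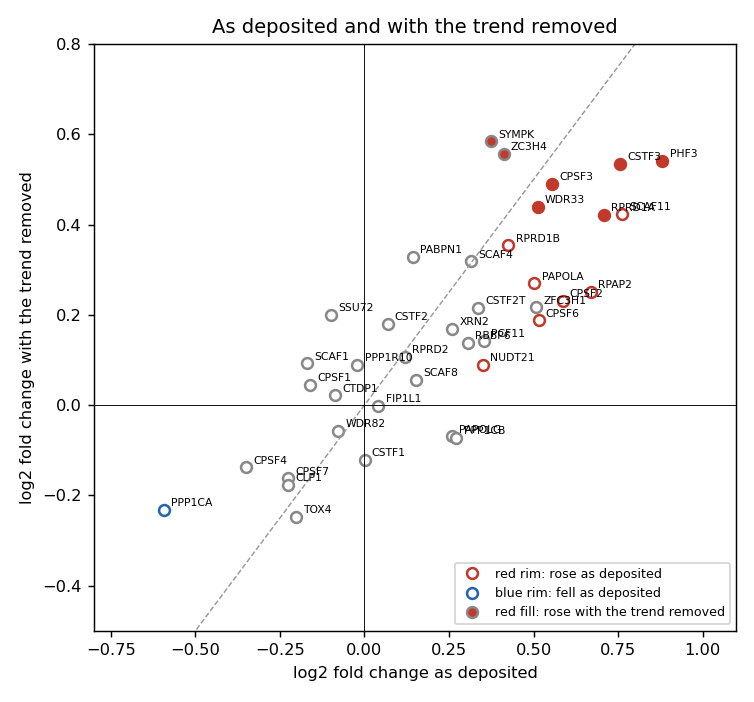
Each point is 1 gene, with the fold change (log2) that the authors' deposited table lists on the horizontal axis and the value with the trend removed on the vertical axis; the dashed line marks equal values. A red or blue rim marks a gene that rose or fell as deposited and a red fill the 7 that passed as higher with the trend removed, where SYMPK and ZC3H4 lie above the line and CPSF6 and NUDT21 well below it.

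The 3′ ends of the transcripts, where these factors act, are shown as the last 30 bases of the main GENCODE transcript in GRCh38, with the poly(A) signal in capitals. CPSF3 ends at chr2:9473072-9473101 (plus), CSTF3 at chr11:33084584-33084613 (minus), SCAF11 at chr12:45919131-45919160 (minus), RPRD1A at chr18:35989824-35989853 (minus) and PCF11 at chr11:83187422-83187451 (plus).
CPSF3: aaAATAAAatgcattcgtttctctggggga
CSTF3: tcctttaaaaAATAAAaggattcagaaaca
SCAF11: attttctAATAAAttcttttgataaactaa
RPRD1A: AATAAAgttttatgttctttttgaaatgtg
PCF11: gttgacctaagaacagctgagtatgggtgc

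In the last 50 bases, AATAAA was found in 29 of 39 members (74.4%), and in 63.0% of 11775 protein-coding genes of the table. ATTAAA without AATAAA was found in 5 members (12.8%) and in 14.6% of those genes. The annotated end of PCF11 holds neither, as do those of 4 other members, among them PHF3, which had the highest fold change. No match says only that these letters are not in this window. TGTA, the DNA form of the element bound by CFI, was found in the last 100 bases of 22 members (56.4%) and of 54.2% of the genes. The members with AATAAA had a median log2 fold change of 0.31 per the authors' deposited table, those with ATTAAA 0.27 and those with neither 0.12. Over the 11775 genes the same medians were 0.003, -0.02 and -0.01. The ATTAAA class and the class with neither hold only 5 members each.

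Lists of genes that work next to these complexes were read in the same way, beside the 16.3% of all genes that rose and the 17.7% that fell as deposited, and the 11.3% and 13.4% with the trend removed. Of 20 genes of the nuclear exosome and its adaptors, 7 rose and 1 fell per the authors' deposited table by DESeq2, or 35.0% and 5.00%, with a median of 0.30. NCBP2, of the cap-binding complex, was at 1.01 (SE 0.16), the exosome helicase MTREX at 0.89 (SE 0.17) and MPHOSPH6 at 0.82 (SE 0.21) per the authors' deposited table. EXOSC1, an exosome subunit, was the gene that fell, at -0.64 (SE 0.16) per the authors' deposited table. With the trend removed, 6 of the 20 passed as higher and 1 as lower.

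Of 13 CTD kinases and small CTD phosphatases, 3 rose and 3 fell per the authors' deposited table by DESeq2. These shares, 23.1% each, lie near the 16.3% and 17.7% of all genes. CDK13, a kinase of the elongating polymerase, was at -0.55 (SE 0.14) and its partner cyclin CCNK at -0.47 (SE 0.19) per the authors' deposited table. CDK9 fell by 0.38 (SE 0.15), whereas its partner cyclins CCNT1 and CCNT2 were at 0.44 (SE 0.14) and 0.77 (SE 0.20) per the authors' deposited table. PPP1CC, the remaining catalytic subunit of PP1, rose by 0.57 (SE 0.14, DESeq2 adjusted p = 0.000272) per the authors' deposited table; PPP1CA fell. With the trend removed, PPP1CC as higher and CDK13 as lower still passed.

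Histone mRNAs end by a separate reaction that shares some subunits of CPSF, and 4 of its 7 listed factors rose and 0 fell per the authors' deposited table by DESeq2. They were CASP8AP2 at 0.90 (SE 0.20), the exonuclease ERI1 at 0.83 (SE 0.17), NPAT at 0.58 (SE 0.19) and the stem-loop-binding protein SLBP at 0.55 (SE 0.15). With the trend removed, 3 of these passed, NPAT being the exception. Of 8 other poly(A) polymerases and poly(A)-binding proteins, TENT4B rose by 1.16 (SE 0.22) and ZC3H14 by 0.47 (SE 0.15) per the authors' deposited table, and TENT4B still passed with the trend removed. The cytoplasmic poly(A)-binding protein PABPC1 was at 0.00 (SE 0.14) per the authors' deposited table.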

How the data were processed

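Tools listed by the submitters' processing notes are STAR 2.7.10a, HTSeq and DESeq2, with cutadapt 3.7, bcl2fastq 2.20 and deepTools, and the build is hg38. Libraries were poly(A)-selected and stranded, per the labels' protocols. How completely the poly(A) selection worked was not tested here. Tool settings and the counting annotation: not given in the sources used here. The deposited table holds, per the file headers, the authors' mean normalised counts (a signal that is never negative), log2 fold changes and SEs, the authors' Wald statistic (a score), and p-values as the authors deposited them, adjusted over all 13885 genes. It has no values or depth per library. The SE never exceeded 0.295, as under a normal prior of SD 0.59, so fold changes may understate changes. Without shrinkage PCF11 was estimated at 0.38.

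Annotation was GENCODE 29 (GRCh38; 13877 genes matched), and promoters were from RefSeq (GRCh38.p14). The trend was a robust linear fit with squared terms (statsmodels 0.14.6). Intervals of 95% use the normal quantile; those of differences between genes treat both SEs as independent. Implied group levels solve the mean and fold change for 2 equal groups. Named genes were every member, PCIF1, up to 4 genes of each neighbouring list by smallest adjusted p, and overlapping genes where a limit needs them. CDK9, CCNK, PABPC1 and RAB2B were named after their values were seen. Members and lists were chosen with earlier results of these data known. Alternatives were other thresholds, an expression minimum, centring, a null of 0.3, rescaled statistics, no shrinkage and the trend. Steps were tested on simulated data. Python 3.11.15 was used.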

Additional observations from a re-analysis of the deposited data

How the results depend on the processing

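No paired analysis was possible because the deposited table has no values per sample; for the same reason no sample could be left out. Of the 39 genes, 13 changed as deposited, a share similar to that of all genes (4716 of 13885). The count was 7 with the trend removed (3427 of 13877 genes). It was 1 (PHF3) when tested against an absolute log2 change of 0.3 (1260 of 13885). With the DESeq2 Wald statistics divided by their robust SD of 2.44 it was 0, where 135 of 13885 genes passed. As deposited, 19 of the 39 and 5998 of the 13885 genes had an unadjusted p under 0.05. The count was 9 at a threshold of 0.01 (3174 of 13885 genes) and 18 at 0.1 (5726 of 13885). PCF11 passed at a threshold of 0.1, at 0.35, and after centring on genes with a mean of at least 100, at 0.38; this centring was chosen after seeing the data. With a minimum mean of 100, CLP1 drops out and the median of CFII becomes 0.35, and that of CFI is 0.0889 with the trend removed. Signs turned with the trend removed for genes that passed in neither case: CPSF1 (0.0450), FIP1L1 (-0.0013), CSTF1 (-0.12), PAPOLG (-0.0691), SCAF1 (0.0928), SSU72 (0.20), CTDP1 (0.0221), PPP1CB (-0.0728) and PPP1R10 (0.0893). Centring on all genes turned CSTF1 (-0.0055), and centring on genes with a mean of at least 100 turned PPP1R10 (0.0029). The cause of these changes was not tested.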

Other observations

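The promoters of the members were searched on both strands for 8 short motifs, in the 300 bases around the RefSeq start. TGACGTCA, the full cyclic AMP response element, was found in 6 of 34 members (17.6%), in 3.42% of the table's genes and in 1.85% of all 35116 RefSeq promoters. The 6 were CSTF3, CTDP1, RBBP6, RPRD1A, XRN2 and ZC3H4, of which CSTF3 and RPRD1A rose. AAGATGGC, part of the YY1 motif, was found in 5 members (14.7%): RPRD1A, RPRD1B, SCAF1, SYMPK and WDR33. It was in 5.86% of the table's genes and in 2.89% of all promoters. CCGGAAG, an ETS motif, was as frequent in the members (20.6%) as in the table's genes (20.5%). CCAAT was in 44.1% of the members and 37.2% of the table's genes, GGGCGG in 61.8% and 71.8%, and GCGCATGC, part of the NRF1 motif, in 5.88% and 5.93%. CACGTG was found in 8.82% of the members and TATAAA in 2.94%, against 10.6% and 5.19% of the table's genes. These shares are descriptions without a test, the motifs were chosen after the values were seen, and a match is not a site.

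Of the 39 genes, 30 overlap another annotated gene, 20 of them a gene that is in the table. SAE1, which overlaps ZC3H4 by 479 bases, fell by 0.60 (SE 0.13) per the authors' deposited table, and RAB2B, which overlaps TOX4 by 377 bases, fell by 0.54 (SE 0.14). OGFOD1 overlaps NUDT21 by 710 bases and fell by 0.43 (SE 0.15) per the authors' deposited table, while NUDT21 rose.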
